A study of Rattus norvegicus with 12 samples.

Results

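The genes of calcium entry, storage, removal and decoding were examined in rat PAC1 cells, a line of pulmonary artery smooth muscle cells. They were taken by symbol alone and were the genes whose symbols begin with Cacn, the TRP channel genes (Trpc, Trpm, Trpv or Trpp followed by a number), the ryanodine and inositol trisphosphate receptor genes, the calcium pump genes Atp2a, Atp2b and Atp2c, Orai1 to Orai3, Stim1, Stim2, the calmodulin genes, the Camk2 and Ppp3 genes, and Casq2, Pln, Sln, Slc8a1 and Mcu. This gave 86 of the 33294 genes in the count table. Of these, 70 passed the filter on low counts and were tested, and 16 did not pass it. The group held 26 subunits of voltage-gated channels, 23 genes with TRP symbols, 5 genes of store-operated entry, 6 store release channels, 9 pumps, 5 pump regulators, buffers, exchangers and uniporters, and 12 genes of calmodulin and its enzymes.

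In smooth muscle, calcium enters through voltage-gated, TRP and ORAI channels of the surface membrane and is released from the sarcoplasmic reticulum by inositol trisphosphate and ryanodine receptors. Pumps and exchangers then return it to the stores or out of the cell. Calmodulin binds the incoming calcium and switches on myosin light chain kinase, which drives contraction, and also the kinase CaMKII and the phosphatase calcineurin, which carry the signal to ion channels and to gene expression.

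PAC1 cells in culture conditions that favour the differentiated state were transfected with a small interfering RNA (siRNA) against RBPMS, RBFOX2 or QKI, 3 RNA-binding proteins that control splicing, or with the control siRNA C2. The study reports that the control cells of its experiment with these knockdowns were less differentiated than those of its other experiment, in splicing and in RNA levels. There were 4 groups of 3 libraries, named control, RBPMS-KD, RBFOX2-KD and QKI-KD here. Per the labels, every well received 90 pmol of siRNA, was transfected again after 24 h with the same amount, and was taken 48 h after that second transfection. The study's methods describe a longer schedule and independent replicates, and the labels number the replicates without saying that they were separate cultures, so p-values measure the spread between these libraries. All the groups were of 1 cell line, and a single siRNA stood for each protein.

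The sense strands of the siRNAs are shown because they define the 4 groups, QK being the rat gene name of QKI, and are written 5′ to 3′ in lower case with no part marked.
C2: aagguccggcucccccaaaug
RBPMS: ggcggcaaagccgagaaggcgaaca
RBFOX2: gcaaugguucagccuuuua
QK: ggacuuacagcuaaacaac

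Each siRNA lowered its target, and the targets also moved in the other knockdowns. In CPM, the usual per-library scaling of counts to a common total, Rbpms fell from 40.7 ± 2.6 in control to 7.21 ± 0.30 in RBPMS-KD (mean ± SD, n = 3). Rbfox2 fell from 154 ± 4.4 to 37.3 ± 0.94 in RBFOX2-KD, and Qk from 233 ± 7.0 to 26.6 ± 0.65 in QKI-KD. Rbpms was also lower in RBFOX2-KD, at 23.1 ± 1.9 CPM, and in QKI-KD, at 29.0 ± 0.96. Qk was lower in RBFOX2-KD, at 174 ± 1.3 CPM, and higher in RBPMS-KD, at 265 ± 10.6. Rbfox2 was slightly lower in RBPMS-KD, at 142 ± 8.8 CPM, and in QKI-KD, at 139 ± 2.4. All of these passed the threshold given below. The libraries held 110595399 to 151665474 counts. Counts are printed as deposited, and since small ones are mostly even they may count both ends of a read pair, which would make the fragments fewer than the counts. RBPMS-KD replicate 2 stood apart from its partners, with a chi-square per degree of freedom of 45.6 and 57.8 against them, where the other pair of that group gave 9.27. Control replicate 3 stood apart to a lesser degree, with 15.5 and 21.5 where the other control pair gave 6.09. It enters every comparison with control. All 8 smooth muscle markers were detected, and their summed level ranged from 2117 to 2181 CPM in control, 1082 to 1191 in RBPMS-KD, 835 to 933 in RBFOX2-KD and 1457 to 1545 in QKI-KD. The 8 did not move as one, since 3 rose and 5 fell in RBPMS-KD, 2 rose and 4 fell in RBFOX2-KD, and 3 rose and 4 fell in QKI-KD. Acta2, Myl9 and Cnn1 fell in all the knockdowns, while Myh11 rose in all, from 6.48 ± 0.21 CPM to 8.23 ± 0.50, 13.4 ± 0.50 and 7.38 ± 0.98, and Des and Myocd rose in RBPMS-KD and QKI-KD. Of these rises, Myh11 in QKI-KD and Myocd in RBPMS-KD overlapped control. Their adjusted p in the edgeR test described below were 0.047 and 0.025. Tagln fell in RBPMS-KD and RBFOX2-KD and did not pass in QKI-KD. The 10 cardiac and skeletal muscle markers together ranged from 4.39 to 6.34 CPM over the 12 libraries, and the 6 neuronal markers from 56.1 to 64.0 CPM in control, 32.1 to 40.4 in RBPMS-KD, 50.6 to 53.3 in RBFOX2-KD and 20.7 to 21.2 in QKI-KD. The 4 epithelial markers summed to 29.5 to 31.7 CPM in control, 36.3 to 44.2 in RBPMS-KD, 72.0 to 73.9 in RBFOX2-KD and 32.3 to 34.2 in QKI-KD. The 5 leukocyte markers gave 38.0 to 39.6 CPM in control, 52.0 to 59.6 in RBPMS-KD, 53.1 to 54.1 in RBFOX2-KD and 40.2 to 42.1 in QKI-KD, and the 5 endothelial markers 8.73 to 10.8, 8.84 to 9.12, 5.18 to 5.76 and 6.46 to 6.75. The neuronal, leukocyte and epithelial sums rested mainly on Map2, Cd14 and Krt8, whose control means were 54.8, 37.0 and 30.6 CPM. Other genes of the lists moved otherwise. In QKI-KD Map2 and Syt1 fell while Tubb3 and Nefl rose, and Epcam and Cdh1 rose while Krt8 did not pass. Pecam1 and Tek rose in RBPMS-KD, where Cdh5 fell. The part of these lists in the results was not tested.

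In each knockdown more of the calcium genes fell than rose. Differences were tested with edgeR's quasi-likelihood test over 18438 genes, and a gene was called higher or lower at a Benjamini-Hochberg adjusted p under 0.05. After RBPMS knockdown 10 of the 70 genes tested rose, 32 fell and 28 did not pass, while 30.4% of all genes tested were higher and 29% lower. After RBFOX2 knockdown 14 rose, 29 fell and 27 did not pass, against 30.1% of all genes in each direction. After QKI knockdown 19 rose, 35 fell and 16 did not pass, against 32.9% higher and 34% lower. The 3 comparisons share the control libraries and are not independent of each other.

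The lower share was above the background in every knockdown, at 45.7% of the calcium genes in RBPMS-KD, 41.4% in RBFOX2-KD and 35 of 70 in QKI-KD, and the higher share was below it, at 14.3%, 20% and 27.1%. The median log2 fold change was -0.25 in RBPMS-KD, -0.13 in RBFOX2-KD and -0.36 in QKI-KD, where the medians over all genes tested lay within 0.015 of 0. Without RBPMS-KD replicate 2, RBPMS knockdown gave 12 genes higher and 33 lower. The summed smooth muscle markers were also lower in all the knockdowns, by the ranges above and mainly through Acta2 and Myl9, with Tagln in RBPMS-KD and RBFOX2-KD, and their part in these counts was not tested. In bulk RNA, fewer cells of a type and less RNA in each cell cannot be told apart.

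Fewer genes passed the study's rule for a changed gene, which adds an absolute log2 fold change above 1. The rule was applied here to the deposited counts, without the study's noise filter and quantile normalisation, so the numbers are not the study's. Under it 4 calcium genes were higher and 8 lower in RBPMS-KD, where 5.16% and 4.5% of all genes were, and 7 were higher without control replicate 2. In RBFOX2-KD 7 were higher and 9 lower, against 6.96% and 4.73% of all genes, and in QKI-KD 11 were higher and 14 lower, against 8.28% and 9.24%. Most of the changed genes were low in counts, which was also seen over all genes. There 952 rose and 829 fell past the fold in RBPMS-KD, but 352 and 340 among genes of at least 200 mean counts. In RBFOX2-KD the numbers went from 1283 and 873 to 424 and 416, and in QKI-KD from 1527 and 1704 to 506 and 978. Of the 37 calcium genes whose mean reached 5 CPM, 1 was changed upward and 2 downward in RBPMS-KD, 2 upward and 4 downward in RBFOX2-KD, and 1 upward and 9 downward in QKI-KD. The shares of all genes at that level were not taken.

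**Figure D1:**
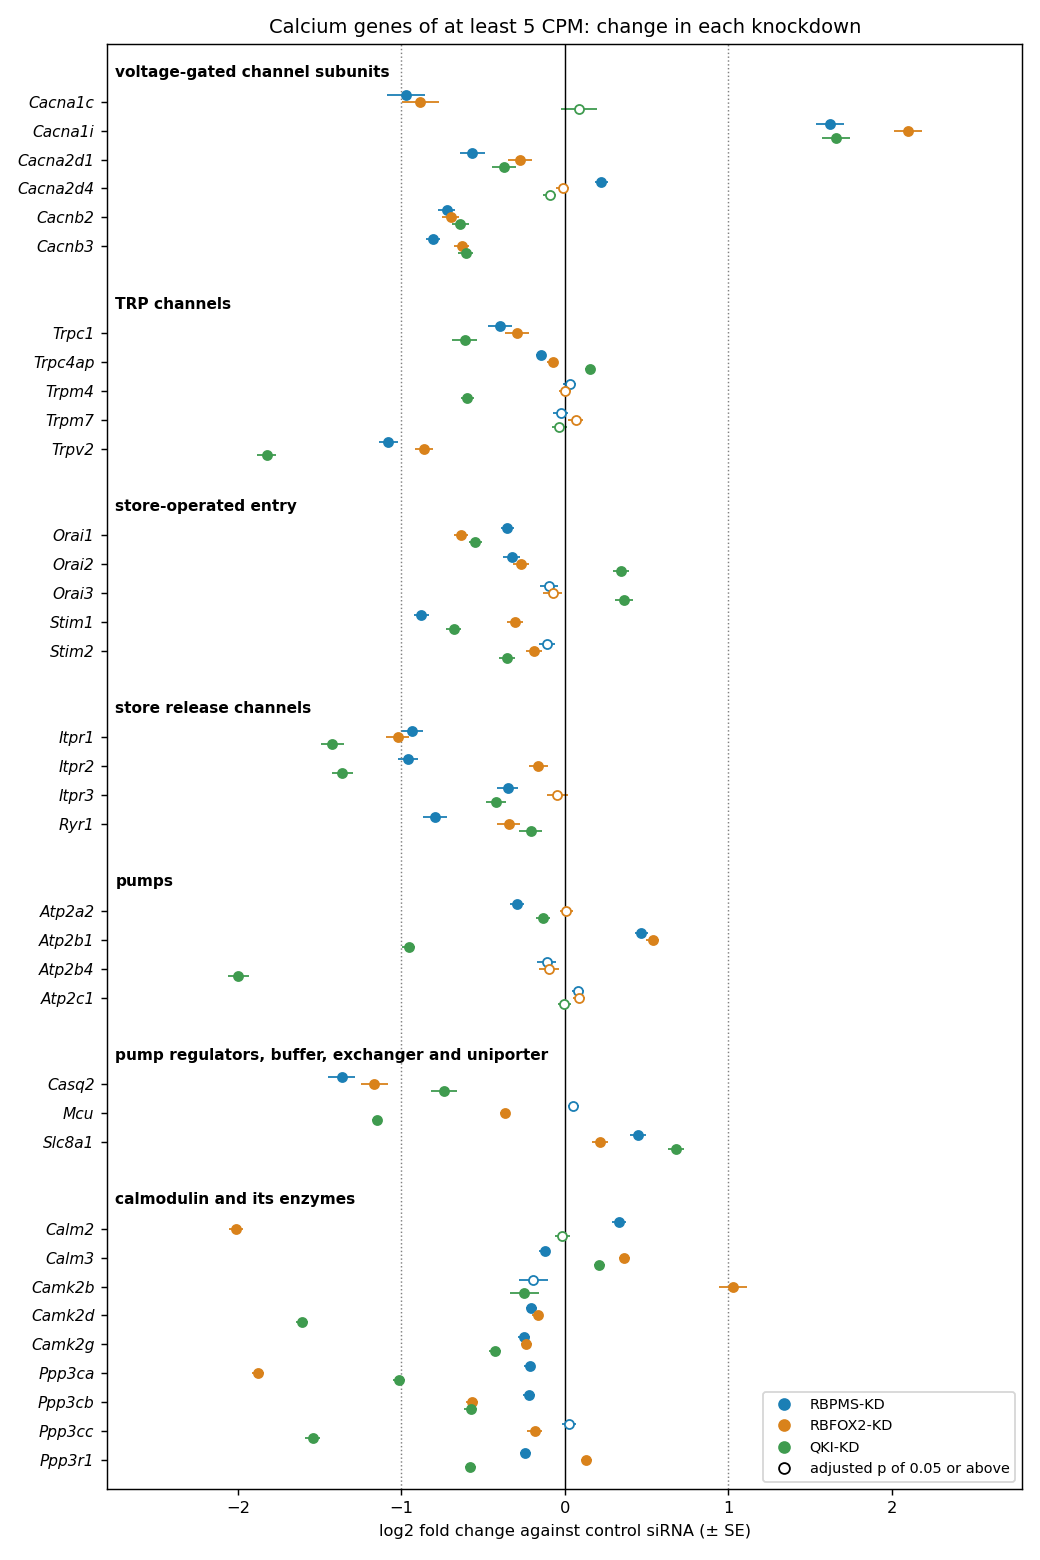
Log2 fold change against control siRNA (x axis, ± SE) for 36 calcium genes whose mean reached 5 CPM (y axis, grouped by role) in RBPMS-KD, RBFOX2-KD and QKI-KD, 3 libraries a group. Open circles did not pass an adjusted p of 0.05 and dotted lines mark a log2 fold change of 1 in each direction; most filled circles lie left of 0, Cacna1i lies past 1 in all 3 knockdowns, and Calm2 lies far left in RBFOX2-KD.

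Calm2 and Calm3, which encode the same calmodulin protein from separate genes, moved in opposite directions in RBPMS-KD and in RBFOX2-KD. Calm2 fell in RBFOX2-KD. It was at 622, 604 and 586 CPM in control, 750, 821 and 707 in RBPMS-KD, 150, 150 and 149 in RBFOX2-KD, and 611, 597 and 586 in QKI-KD. The RBFOX2-KD libraries were about 4.03 times lower than control (log2 fold change -2.01 ± 0.045, adjusted p = 6.6e-16), the RBPMS-KD libraries were higher by 0.33 ± 0.044 on the log2 scale, and the QKI-KD libraries overlapped control and did not pass. Calm3 went from 132, 135 and 137 CPM in control to 121, 129 and 120 in RBPMS-KD, 174, 173 and 172 in RBFOX2-KD and 158, 154 and 155 in QKI-KD. No library of a knockdown overlapped control for Calm3, which was lower by 0.12 ± 0.033 in RBPMS-KD and higher by 0.36 ± 0.033 and 0.21 ± 0.033 in the other two.

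Compared directly, Calm2 was lower in RBFOX2-KD than in QKI-KD by 2.00 ± 0.045 on the log2 scale, with an adjusted p of 4.1e-16. The treatment of reads shared between related genes is not given in the sources used here, so values of these near-identical coding genes carry that uncertainty.

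**Figure D2:**
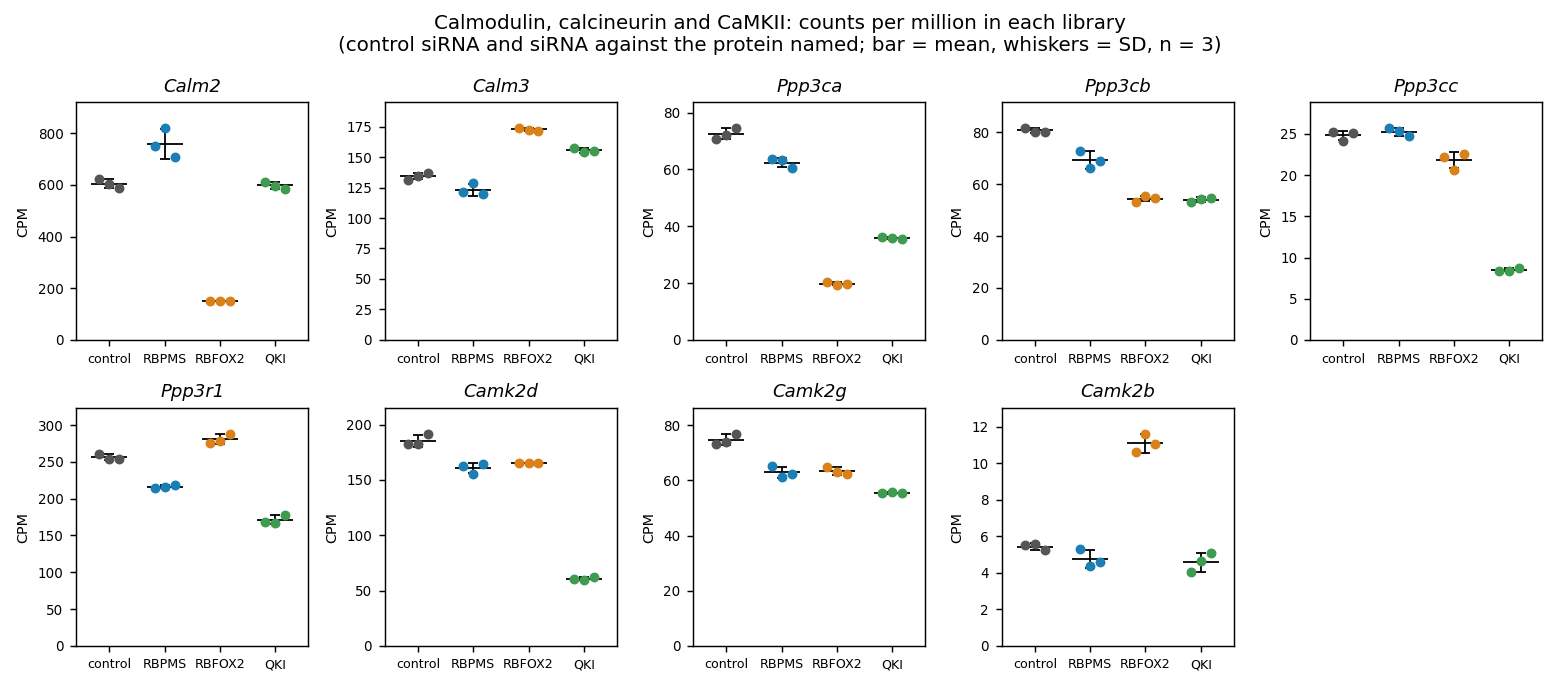
CPM (y axes, from 0) of Calm2 and Calm3, the calcineurin subunit genes and 3 CaMKII genes in each of the 12 libraries, with the mean and SD of each group of 3. Camk2d and Ppp3cc are lowest in the QKI-KD libraries and Calm2 in the RBFOX2-KD libraries, and Ppp3ca is low in both.

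The catalytic calcineurin genes fell in RBFOX2-KD and QKI-KD. Calcineurin is the calcium-dependent phosphatase that activates NFAT transcription factors, and its catalytic subunit is encoded by Ppp3ca, Ppp3cb or Ppp3cc. Ppp3ca was at 70.9, 72.0 and 74.7 CPM in control, 63.6, 63.3 and 60.5 in RBPMS-KD, 20.3, 19.2 and 19.7 in RBFOX2-KD, and 36.2, 35.9 and 35.7 in QKI-KD. The 4 groups did not overlap. The log2 fold changes were -0.22 ± 0.036, -1.88 ± 0.038 and -1.01 ± 0.037, the second with an adjusted p of 1.9e-16.

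Ppp3cc fell mainly in QKI-KD, from 25.2, 24.1 and 25.1 CPM in control to 8.37, 8.42 and 8.75 (log2 fold change -1.54 ± 0.047, adjusted p = 1.4e-14). It was at 22.2, 20.7 and 22.6 CPM in RBFOX2-KD, lower by 0.18 ± 0.044, and at 25.7, 25.3 and 24.7 in RBPMS-KD, which overlapped control and did not pass. Ppp3cb was lower in every knockdown, by 0.22 ± 0.037, 0.57 ± 0.037 and 0.58 ± 0.038 in RBPMS-KD, RBFOX2-KD and QKI-KD, all on the log2 scale. Ppp3r1, the regulatory subunit, was lower by 0.24 ± 0.033 in RBPMS-KD and 0.58 ± 0.033 in QKI-KD, and higher by 0.13 ± 0.033 in RBFOX2-KD.

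Of the CaMKII genes, which encode the subunits of the calcium and calmodulin-dependent protein kinase, Camk2d fell most in QKI-KD among those of at least 5 CPM. It was at 183, 182 and 192 CPM in control, 162, 155 and 165 in RBPMS-KD, 165, 165 and 166 in RBFOX2-KD, and 60.7, 59.4 and 62.4 in QKI-KD. Every knockdown library lay below every control library, and those of QKI-KD lay lowest by a wide margin. The log2 fold change was -1.61 ± 0.035 in QKI-KD (adjusted p = 2.2e-16), -0.21 ± 0.034 in RBPMS-KD and -0.17 ± 0.034 in RBFOX2-KD.

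Camk2b went the other way in RBFOX2-KD, from 5.50, 5.59 and 5.22 CPM in control to 10.6, 11.6 and 11.03 (log2 fold change 1.03 ± 0.084, adjusted p = 1.1e-08). It was at 5.33, 4.38 and 4.59 CPM in RBPMS-KD, which did not pass, and at 4.04, 4.63 and 5.08 in QKI-KD, lower by 0.25 ± 0.088. That call was lost without control replicate 2 (adjusted p = 0.059), without QKI-KD replicate 1 (0.13), with library totals alone (log2 fold change -0.16, adjusted p = 0.11) and in the authors' normalised table (-0.11, adjusted p = 0.35). Camk2g was lower by 0.25 ± 0.035, 0.23 ± 0.035 and 0.43 ± 0.036 in RBPMS-KD, RBFOX2-KD and QKI-KD. Camk2a had 27 to 49 counts in the control libraries and 10 to 20 in those of the knockdowns, and was changed downward in all of them, with log2 fold changes of -1.41 ± 0.38, -1.35 ± 0.37 and -1.70 ± 0.39. Over calmodulin and its enzymes, 11 genes were tested, of which 2 rose and 7 fell in RBPMS-KD, 4 rose and 7 fell in RBFOX2-KD, and 1 rose and 9 fell in QKI-KD. Of all genes, 30.4% rose and 29% fell in RBPMS-KD, 30.1% went each way in RBFOX2-KD, and 32.9% rose and 34% fell in QKI-KD. Ppp3r2 had no count in any library.

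The channels that release calcium from the stores fell without exception among those that passed the test. Of the 6 genes, 5 fell in RBPMS-KD, 3 in RBFOX2-KD and 5 in QKI-KD, and none rose, where 29%, 30.1% and 34% of all genes tested fell. Itpr1, the inositol trisphosphate receptor type I gene, was at 99.8, 103 and 114 CPM in control, 60.6, 48.5 and 56.7 in RBPMS-KD, 53.5, 50.8 and 51.7 in RBFOX2-KD, and 37.0, 42.6 and 38.7 in QKI-KD. All knockdown libraries lay below control, those of QKI-KD lowest. The log2 fold changes were -0.94 ± 0.070, -1.02 ± 0.070 and -1.42 ± 0.071, with adjusted p of 4.0e-09, 1.1e-09 and 9.1e-12.

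Itpr2 separated the knockdowns more sharply. Its CPM were 13.9, 14.1 and 14.0 in control, 7.51, 6.73 and 7.41 in RBPMS-KD, 11.7, 13.4 and 12.6 in RBFOX2-KD, and 5.69, 5.31 and 5.37 in QKI-KD. RBPMS-KD and QKI-KD lay well below control and RBFOX2-KD only a little below. The fall was -0.96 ± 0.062 in RBPMS-KD and -1.36 ± 0.063 in QKI-KD, and -0.16 ± 0.059 in RBFOX2-KD (adjusted p = 0.026). This small fall did not hold with library totals alone (adjusted p = 0.13), nor without control replicate 2 or 3 or RBFOX2-KD replicate 1 or 3, where the adjusted p was 0.052 to 0.13. Against each other, RBPMS-KD was lower than RBFOX2-KD by 0.80 ± 0.062 (adjusted p = 1.0e-08). Itpr3 was lower by 0.35 ± 0.063 in RBPMS-KD and 0.42 ± 0.063 in QKI-KD, and overlapped control in RBFOX2-KD at 168, 171 and 172 CPM against 166, 183 and 178.

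The ryanodine receptors open in response to calcium itself. Ryr1 fell most in RBPMS-KD, from 9.55, 9.86 and 10.9 CPM in control to 6.14, 5.69 and 5.62 (log2 fold change -0.80 ± 0.072, adjusted p = 4.5e-08), and was lower by 0.34 ± 0.070 in RBFOX2-KD and 0.21 ± 0.070 in QKI-KD. The call in QKI-KD was lost without control replicate 3 and without QKI-KD replicate 3, with adjusted p of 0.079 and 0.076. It was also lost with library totals alone (log2 fold change -0.12, adjusted p = 0.12) and in the authors' normalised table (-0.05, adjusted p = 0.59). Ryr2 was low, with 68, 118 and 122 counts in control, 27, 23 and 48 in RBPMS-KD, 66, 88 and 78 in RBFOX2-KD, and 6, 16 and 14 in QKI-KD. Its log2 fold change was -1.40 ± 0.32 in RBPMS-KD and -2.95 ± 0.38 in QKI-KD, while RBFOX2-KD overlapped control. Ryr3, with 25 to 68 counts a library, did not pass in any knockdown.

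**Figure D3:**
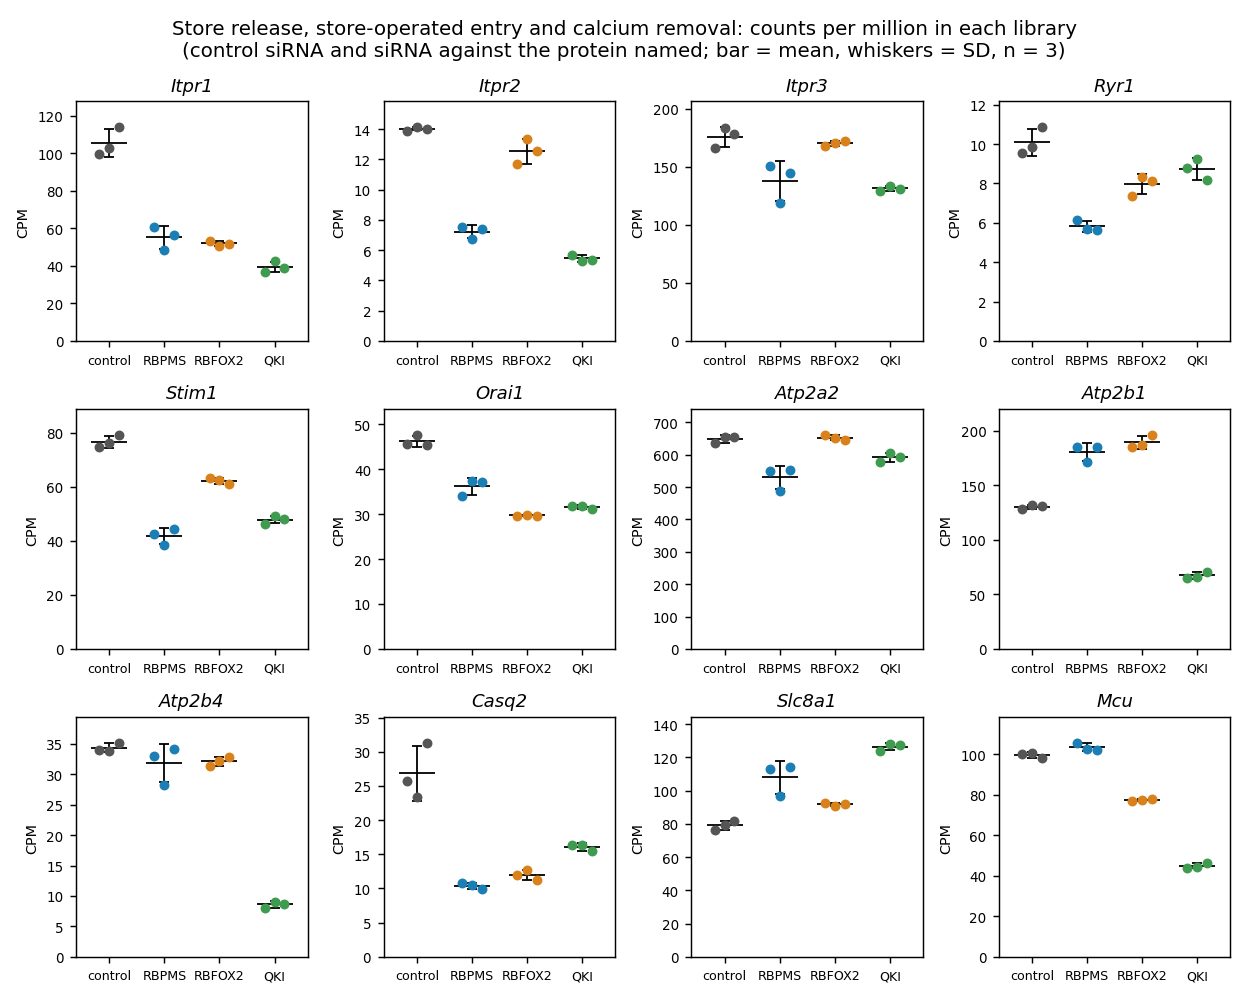
CPM (y axes, from 0) of 12 genes of store release, store-operated entry and calcium removal in each of the 12 libraries, with the mean and SD of each group of 3. The receptors Itpr1 and Itpr2, Stim1, Orai1 and Casq2 are highest in control, Slc8a1 is lowest there, Atp2b1 rises in 2 knockdowns and falls in QKI-KD, and Atp2b4 and Mcu are lowest in QKI-KD.

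Store-operated entry begins when STIM proteins sense an emptied store and open ORAI channels in the surface membrane. Stim1 was at 74.9, 76.1 and 79.1 CPM in control, 42.7, 38.4 and 44.3 in RBPMS-KD, 63.0, 62.3 and 60.9 in RBFOX2-KD, and 46.3, 49.1 and 48.2 in QKI-KD. No knockdown overlapped control. It fell by 0.88 ± 0.047, 0.30 ± 0.046 and 0.68 ± 0.046 on the log2 scale, and was lower in RBPMS-KD than in RBFOX2-KD by 0.57 ± 0.047 (adjusted p = 1.9e-08). Orai1 fell from 45.6, 47.6 and 45.3 CPM to 34.0, 37.4 and 37.1 in RBPMS-KD, 29.7, 29.9 and 29.6 in RBFOX2-KD and 31.8, 31.8 and 31.1 in QKI-KD, with log2 fold changes of -0.35 ± 0.041, -0.63 ± 0.041 and -0.55 ± 0.041.

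The other ORAI genes rose in QKI-KD. Orai2 was at 22.0, 22.2 and 22.0 CPM in control and 28.3, 27.2 and 28.4 in QKI-KD, higher by 0.34 ± 0.049, where it was lower by 0.33 ± 0.050 in RBPMS-KD and 0.27 ± 0.049 in RBFOX2-KD. Orai3 was at 24.8, 24.6 and 25.5 CPM in control and 30.5, 30.8 and 34.8 in QKI-KD, higher by 0.36 ± 0.055, and did not pass in the other knockdowns. Stim2 was lower by 0.19 ± 0.049 in RBFOX2-KD and 0.35 ± 0.049 in QKI-KD. Directly compared, Orai2 was lower by 0.67 ± 0.049 in RBPMS-KD and by 0.61 ± 0.049 in RBFOX2-KD than in QKI-KD, with adjusted p of 3.0e-09 and 6.2e-09.

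The plasma membrane pumps, which expel calcium from the cell, differed between QKI-KD and the other knockdowns. Atp2b1, encoding PMCA1, was at 128, 132 and 131 CPM in control, 185, 171 and 185 in RBPMS-KD, 185, 187 and 196 in RBFOX2-KD, and 65.0, 65.9 and 70.8 in QKI-KD. RBPMS-KD and RBFOX2-KD lay above control and QKI-KD below it, with no overlap. The log2 fold changes were 0.47 ± 0.041, 0.54 ± 0.041 and -0.96 ± 0.042. Atp2b4, encoding PMCA4, fell in QKI-KD from 34.1, 33.8 and 35.2 CPM to 8.03, 9.07 and 8.70, which was 3.99 times lower (log2 fold change -1.998 ± 0.064, adjusted p = 2.7e-14). It stood at 33.0, 28.3 and 34.1 CPM in RBPMS-KD and 31.4, 32.2 and 32.8 in RBFOX2-KD, where it did not pass.

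Atp2b4 was higher by 1.90 ± 0.064 and Atp2b1 by 1.49 ± 0.042 on the log2 scale in RBFOX2-KD than in QKI-KD, with adjusted p of 5.5e-14 and 5.4e-15. The pump of the sarcoplasmic reticulum, SERCA2, is encoded by Atp2a2. Its CPM were 636, 656 and 655 in control, 548, 489 and 553 in RBPMS-KD, 661, 651 and 646 in RBFOX2-KD, and 578, 604 and 593 in QKI-KD. It was lower by 0.29 ± 0.041 in RBPMS-KD and by 0.13 ± 0.041 in QKI-KD, and the second call was lost with library totals alone and in the authors' normalised table. RBFOX2-KD overlapped control.

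Atp2c1, the Golgi pump gene, did not pass in any knockdown and ranged from 75.0 to 85.2 CPM over the 12 libraries. Among the low pump genes, Atp2b3 had 9, 8 and 5 counts in control and 36, 47 and 32 in RBFOX2-KD, a log2 fold change of 2.33 ± 0.51 (adjusted p = 0.00074) that was 1.52 in the authors' normalised table. Atp2a1 and Atp2c2 had 50 to 148 and 66 to 208 counts a library and were higher in QKI-KD by 0.67 ± 0.19 and 0.97 ± 0.18. Of the 8 pump genes tested, 1 rose and 1 fell in RBPMS-KD, 2 rose and none fell in RBFOX2-KD, and 2 rose and 3 fell in QKI-KD. The shares of all genes that rose and fell were 30.4% and 29%, 30.1% each, and 32.9% and 34%.

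Casq2, calsequestrin, which binds calcium inside the store, fell in each knockdown. It was at 25.7, 23.4 and 31.3 CPM in control, 10.8, 10.5 and 9.93 in RBPMS-KD, 11.98, 12.7 and 11.2 in RBFOX2-KD, and 16.4, 16.4 and 15.4 in QKI-KD. The control libraries varied among themselves and all lay above every knockdown library. The log2 fold changes were -1.37 ± 0.084, -1.17 ± 0.082 and -0.74 ± 0.081, with adjusted p of 3.2e-10, 1.5e-09 and 3.1e-07. Pln, phospholamban, which restrains SERCA, had 55, 112 and 121 counts in control, 14, 28 and 26 in RBPMS-KD, 25, 20 and 24 in RBFOX2-KD and 106, 76 and 72 in QKI-KD. It was lower in RBPMS-KD by 1.85 ± 0.29 and in RBFOX2-KD by 2.07 ± 0.28 on the log2 scale, and QKI-KD overlapped control.

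Slc8a1, the sodium and calcium exchanger of the surface membrane, was one of 5 calcium genes that rose in all the knockdowns. It was at 76.5, 79.3 and 81.4 CPM in control, 113, 96.6 and 114 in RBPMS-KD, 92.4, 90.8 and 92.2 in RBFOX2-KD, and 124, 128 and 127 in QKI-KD. No knockdown library overlapped control. Its log2 fold changes were 0.45 ± 0.050, 0.22 ± 0.050 and 0.68 ± 0.050.

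Mcu, the pore of the mitochondrial calcium uniporter, was at 100, 100 and 98.1 CPM in control, 106, 102 and 102 in RBPMS-KD, 76.8, 77.2 and 77.7 in RBFOX2-KD, and 44.0, 44.5 and 46.3 in QKI-KD. It fell by 0.37 ± 0.032 in RBFOX2-KD and by 1.15 ± 0.033 in QKI-KD (adjusted p = 5.7e-15), and did not pass in RBPMS-KD. RBFOX2-KD was higher than QKI-KD by 0.78 ± 0.033.

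The voltage-gated channels are built from a Cacna1 pore and auxiliary α2δ (Cacna2d), β (Cacnb) and γ (Cacng) subunits. Cacna1c, the pore of the L-type channel that carries most calcium entry in contracting smooth muscle, was at 7.44, 6.67 and 8.31 CPM in control, 4.38, 2.92 and 4.19 in RBPMS-KD, 4.22, 3.88 and 4.05 in RBFOX2-KD, and 8.05, 7.79 and 7.94 in QKI-KD. It was lower in RBPMS-KD and RBFOX2-KD and inside the control range in QKI-KD. The log2 fold changes were -0.97 ± 0.12 and -0.88 ± 0.11, with adjusted p of 1.3e-06 and 3.1e-06, and each of these groups was lower than QKI-KD by 1.06 ± 0.12 and 0.97 ± 0.11.

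The β subunits move the pore to the membrane. Cacnb3 was at 83.5, 84.1 and 89.2 CPM in control, 50.8, 47.5 and 48.4 in RBPMS-KD, 58.8, 53.7 and 53.1 in RBFOX2-KD, and 55.9, 57.3 and 55.3 in QKI-KD. Cacnb2 was at 17.0, 17.3 and 18.3 CPM in control, 10.5, 10.3 and 11.01 in RBPMS-KD, 11.3, 10.4 and 10.7 in RBFOX2-KD, and 11.4, 10.9 and 11.4 in QKI-KD. Both genes were lower in every knockdown library than in every control library. Cacnb3 fell by 0.81 ± 0.044, 0.63 ± 0.044 and 0.61 ± 0.044 on the log2 scale and Cacnb2 by 0.72 ± 0.052, 0.70 ± 0.052 and 0.64 ± 0.052, with adjusted p from 7.5e-11 to 6.4e-09. The α2δ gene Cacna2d1 fell by 0.57 ± 0.075, 0.27 ± 0.074 and 0.37 ± 0.074.

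Cacna1i, the pore of a T-type channel that opens at low voltage, rose in all the knockdowns. It was at 5.66, 6.55 and 5.24 CPM in control, 18.7, 15.7 and 19.6 in RBPMS-KD, 24.2, 24.1 and 26.6 in RBFOX2-KD, and 18.2, 19.5 and 17.6 in QKI-KD. Each knockdown library held more than any control library. It was 3.08, 4.28 and 3.16 times control, with log2 fold changes of 1.62 ± 0.087, 2.10 ± 0.086 and 1.66 ± 0.087 and adjusted p of 5.9e-11, 1.4e-12 and 1.7e-11. RBFOX2-KD was higher than RBPMS-KD by 0.47 ± 0.080 and than QKI-KD by 0.44 ± 0.080 on the log2 scale, with adjusted p of 7.3e-05 and 0.00011.

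QKI knockdown raised 7 of the 18 voltage-gated subunit genes tested, each by a log2 fold change above 1, and lowered 6. These shares, 38.9% and 33.3%, stood near the 32.9% and 34% of all genes, while 8.28% of all genes rose past that fold. Cacnb1, a β subunit best known from skeletal muscle, had 97, 98 and 117 counts in control and 527, 396 and 530 in QKI-KD, 5.00 times the control level (log2 fold change 2.32 ± 0.18, adjusted p = 3.4e-09). RBPMS-KD, with 73, 133 and 58 counts, and RBFOX2-KD, with 104, 101 and 75, overlapped control. The T-type pore Cacna1g had 92, 127 and 93 counts in control and 253, 243 and 207 in QKI-KD, with a log2 fold change of 1.29 ± 0.17. Another T-type pore, Cacna1h, had 4, 8 and 14 counts in control and 42, 36 and 46 in QKI-KD, with a log2 fold change of 2.35 ± 0.44 that was 1.68 in that normalised table.

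The remaining genes raised in QKI-KD besides Cacna1i were the L-type pores Cacna1d and Cacna1f and the α2δ gene Cacna2d3, with at most 48 counts in any QKI-KD library. Cacna1d had 11, 27 and 10 counts in control, 19, 30 and 26 in RBPMS-KD, 32, 45 and 61 in RBFOX2-KD and 42, 17 and 48 in QKI-KD. All RBFOX2-KD libraries lay above control and QKI-KD overlapped it. The log2 fold change was 1.51 ± 0.41 in RBFOX2-KD (adjusted p = 0.0040), or 2.02 without control replicate 2, and 1.26 ± 0.41 in QKI-KD. Cacna1f, with 22, 16 and 24 counts in QKI-KD, rose there by 3.20 ± 0.72 on the log2 scale, or by 4.25 without control replicate 2 and 1.65 in the normalised table. The QKI-KD call of Cacna1d was lost without control replicate 3 (adjusted p = 0.059) or QKI-KD replicate 3 (0.077), and that of Cacna2d3 without control replicate 1 or 2 or QKI-KD replicate 1 (0.070, 0.060 and 0.13). Cacna2d3 had 4, 6 and 6 counts in control, 0, 8 and 2 in RBPMS-KD and none in RBFOX2-KD, where it was changed. Against a floor of 3 counts a library, it was at least 1.80 times lower there. The median of the calcium genes in RBFOX2-KD, -0.13, could not move with the gene at that bound, because the gene stays below it. Cacna2d2 fell in QKI-KD from 569, 640 and 693 counts to 283, 243 and 255, with a log2 fold change of -1.17 ± 0.090 (adjusted p = 3.0e-09).

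In RBPMS-KD 3 voltage-gated genes rose and 7 fell, where 30.4% and 29% of all genes did. In RBFOX2-KD 2 rose and 7 fell, against 30.1% of all genes in each direction. Cacna2d4 was higher in RBPMS-KD by 0.22 ± 0.041 and did not pass in the others. Cacnb4 had 58, 52 and 70 counts in control and 6, 12 and 18 in RBPMS-KD, with a log2 fold change of -2.10 ± 0.34. Cacna1b, the N-type pore of neurons, had 21, 30 and 34 counts in control and 8, 8 and 10 in RBFOX2-KD, with a log2 fold change of -1.71 ± 0.41. Cacna1f had 0, 5 and 2 counts in control and 5, 24 and 8 in RBPMS-KD, with a log2 fold change of 2.52 ± 0.76. That call was lost without RBPMS-KD replicate 2 (1.76, adjusted p = 0.089), and the fold was 3.57 on the log2 scale without control replicate 2.

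**Figure D4:**
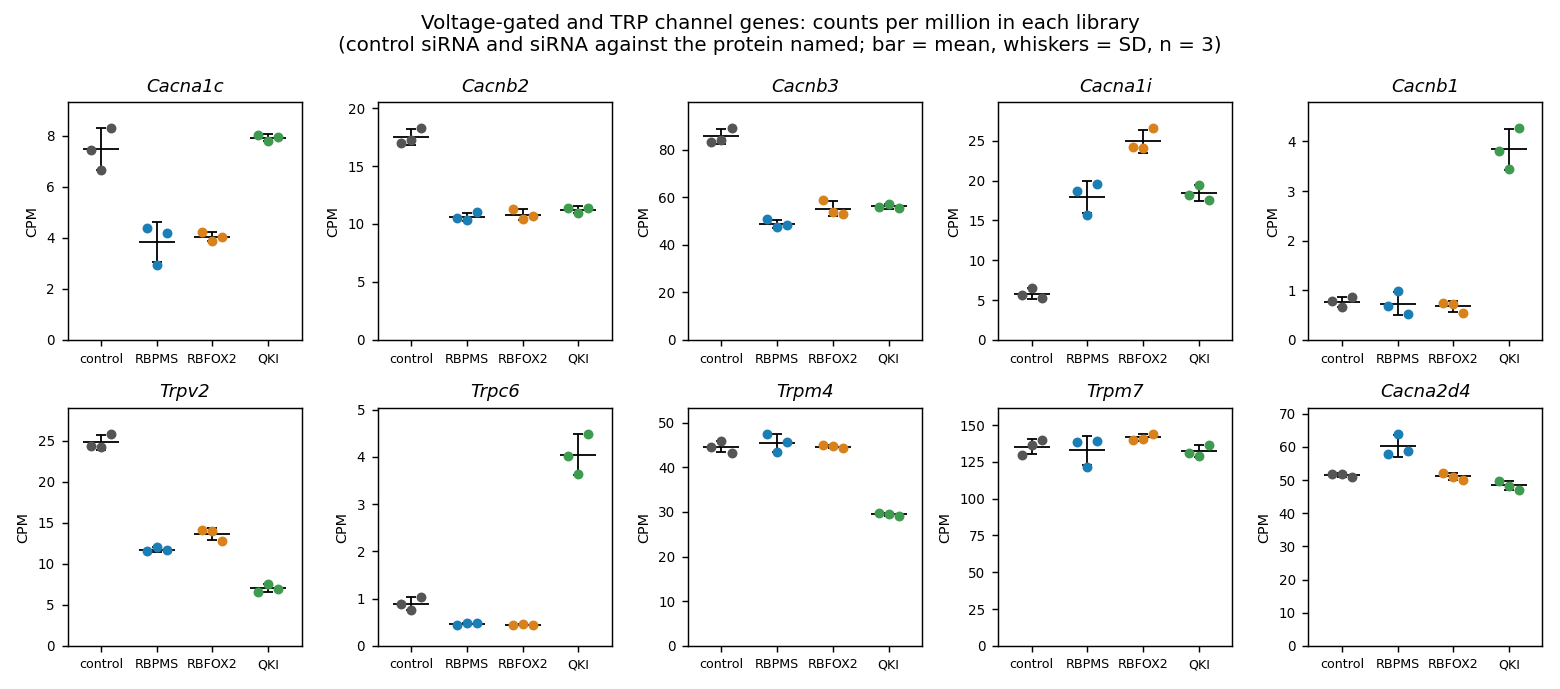
CPM (y axes, from 0) of 6 voltage-gated subunit genes and 4 TRP channel genes in each of the 12 libraries, with the mean and SD of each group of 3. Cacna1i is higher in all the knockdowns, Cacnb2, Cacnb3 and Trpv2 are lower in all of them, Cacnb1 and Trpc6 are raised in QKI-KD alone, and Trpm7 and Cacna2d4 lie near control.

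TRP channels are cation channels opened by lipids, stretch, heat or calcium. Trpv2, a TRP channel linked to stretch responses, was at 24.3, 24.2 and 25.8 CPM in control, 11.5, 12.1 and 11.6 in RBPMS-KD, 14.1, 13.9 and 12.8 in RBFOX2-KD, and 6.57, 7.53 and 6.93 in QKI-KD. The 4 groups did not overlap. It fell by 1.08 ± 0.057, 0.86 ± 0.056 and 1.82 ± 0.059 on the log2 scale, with adjusted p of 5.0e-11, 5.5e-10 and 3.0e-14. Trpv4, another TRP channel of vascular cells, was lower by 1.28 ± 0.15, 0.74 ± 0.14 and 0.88 ± 0.14, and Trpc1 by 0.40 ± 0.074, 0.29 ± 0.073 and 0.61 ± 0.075.

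Trpc6, a channel opened by diacylglycerol downstream of receptors, moved in opposite directions. It had 108, 114 and 140 counts in control, 48, 64 and 54 in RBPMS-KD, 60, 64 and 60 in RBFOX2-KD, and 556, 418 and 557 in QKI-KD. RBPMS-KD and RBFOX2-KD lay below control and QKI-KD above it. It differed from control by -0.91 ± 0.15, -1.004 ± 0.15 and 2.18 ± 0.13 on the log2 scale, and RBFOX2-KD was lower than QKI-KD by 3.19 ± 0.14 (adjusted p = 1.8e-12).

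Trpm4, a channel for monovalent cations that calcium opens, was at 44.6, 45.8 and 43.3 CPM in control and 29.8, 29.5 and 29.1 in QKI-KD, lower by 0.60 ± 0.039, and overlapped control in the other knockdowns. Trpm7, which joins a channel for magnesium and calcium to a kinase, did not pass in any and ranged from 122 to 144 CPM over the 12 libraries. Trpm5, a channel of taste cells opened by calcium, had 8, 6 and 7 counts in control, 26, 18 and 35 in RBPMS-KD, 56, 105 and 79 in RBFOX2-KD and 25, 24 and 14 in QKI-KD. Every knockdown library was above control, with log2 fold changes of 2.12 ± 0.44, 3.46 ± 0.40 and 1.67 ± 0.46, or 1.46, 2.51 and 0.96 in the authors' normalised table. Trpm6, a magnesium channel with a kinase domain, had 10 to 20 counts in control and 32 to 112 in the knockdowns, and rose by 2.75 ± 0.29, 1.60 ± 0.30 and 2.19 ± 0.30. Trpm1 also rose in all of them, by 0.63 ± 0.17, 0.73 ± 0.17 and 0.76 ± 0.17. Trpm3 had 171 to 254 counts in control and was lower by 0.70 ± 0.14 in RBPMS-KD and 0.88 ± 0.14 in QKI-KD, and higher by 0.31 ± 0.13 in RBFOX2-KD, where its adjusted p only just passed.

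Of the other low TRP genes, Trpv3 fell by 1.25 ± 0.31 in RBPMS-KD and by 1.36 ± 0.31 in QKI-KD on 45 to 50 counts in control, and Trpc2 rose by 2.67 ± 0.52 in QKI-KD on 2 to 6 counts in control, or by 1.59 in the normalised table. The higher call of Trpm8 in RBFOX2-KD was lost without control replicate 1 or 3 or RBFOX2-KD replicate 1 (adjusted p of 0.079, 0.087 and 0.10), and its log2 fold change was 1.53 with all libraries and 2.23 without control replicate 2. The lower call of Trpv1 in QKI-KD was lost without control replicate 1 or QKI-KD replicate 1 (0.073 and 0.057), and its log2 fold change was -1.59 with all libraries and -2.60 without QKI-KD replicate 3. Trpc4ap encodes a protein named for its binding to a TRP channel and is no channel. It was lower by 0.15 ± 0.031 in RBPMS-KD and higher by 0.16 ± 0.031 in QKI-KD, and its fall of 0.08 ± 0.031 in RBFOX2-KD was lost in 10 of 21 alternatives, among them leaving out control replicate 2 or 3 or any RBFOX2-KD library, where leaving out 1 library gave log2 fold changes of -0.09 to -0.06. Over the 18 TRP genes tested, 3 rose and 7 fell in RBPMS-KD, 5 rose and 5 fell in RBFOX2-KD, and 6 rose and 7 fell in QKI-KD. The shares of all genes that rose and fell were 30.4% and 29%, 30.1% each, and 32.9% and 34%.

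**Figure D5:**
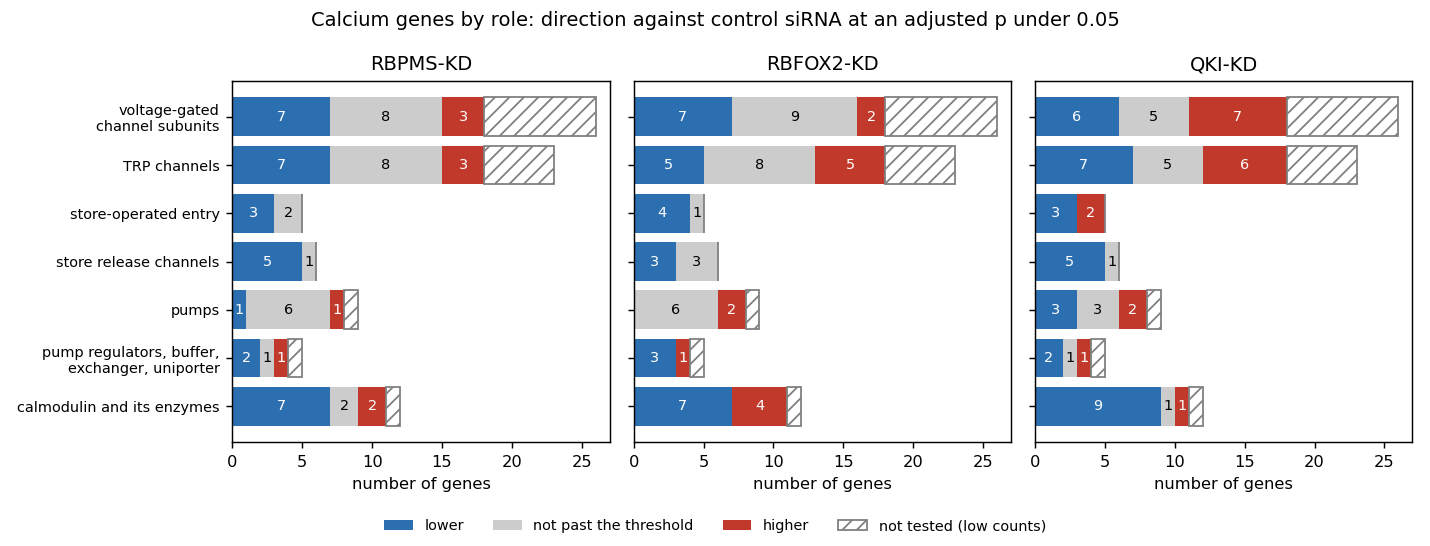
Number of calcium genes (x axes) that were lower, higher or not past an adjusted p of 0.05 against control siRNA in each knockdown, by role (y axis), with the genes not tested hatched. No store release channel is higher in any knockdown, and the voltage-gated subunits hold the largest count of higher genes, 7 of 18 tested, in QKI-KD. Over all genes tested, 30.4%, 30.1% and 32.9% were higher in RBPMS-KD, RBFOX2-KD and QKI-KD.

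Read across the knockdowns, 18 calcium genes were lower in all 3, which is 25.7% of the 70 tested, where 12.5% of all genes tested were. They were Cacna1a, Cacna2d1, Cacnb2, Cacnb3, Trpc1, Trpv2, Trpv4, Orai1, Stim1, Itpr1, Itpr2, Ryr1, Casq2, Camk2a, Camk2d, Camk2g, Ppp3ca and Ppp3cb, a set that spans entry, storage, release and decoding. Another 5, Cacna1i, Trpm1, Trpm5, Trpm6 and Slc8a1, were higher in all 3, which is 7.14% where 12.3% of all genes were. Because the control libraries are shared, a shift in them enters every comparison. Rbpms RNA was itself lower in all 3 knockdowns, and its part in these shared calls was not tested.

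The knockdowns were also compared with each other in the same fit, whose filter, scaling and dispersion use all 12 libraries. Between RBPMS-KD and RBFOX2-KD, 12 calcium genes were higher and 22 lower in RBPMS-KD, where 28.8% and 27.9% of all genes were. Between RBPMS-KD and QKI-KD, 23 were higher and 26 lower in RBPMS-KD, against 32% and 29% of all genes. Between RBFOX2-KD and QKI-KD, 29 were higher and 21 lower in RBFOX2-KD, against 35% and 33.5%. Within calmodulin and its enzymes, 8 of 11 genes were higher and 1 lower in RBPMS-KD than in QKI-KD, while 11 of 18 voltage-gated subunit genes were lower and 2 higher. Casq2 was lower in RBPMS-KD than in QKI-KD by 0.63 ± 0.084 (adjusted p = 5.3e-06) and did not pass between RBPMS-KD and RBFOX2-KD.

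The 16 genes that were not tested had at most 14 counts in any library. They were Cacna1e, Cacng1 to Cacng6, Cacng8, Trpc4, Trpc5, Trpc5os, Trpm2, Trpv5, Atp2b2, Sln and Ppp3r2, and 5 of them held no more than 3 counts in any library. Among the tested genes that passed in no knockdown were Cacna1s, Cacng7, Trpc7, Trpm7, Trpv6, Ryr3, Atp2a3 and Atp2c1.

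Other calcium genes were read from lists of 73 genes, of which 69 were tested. Among them 18 rose and 31 fell in RBPMS-KD, where 30.4% and 29% of all genes did. In RBFOX2-KD 25 rose and 27 fell, against 30.1% in each direction, and in QKI-KD 22 rose and 34 fell, against 32.9% and 34%. A partner of the store release channels and a mitochondrial exchanger fell after RBFOX2 knockdown. Fkbp1a, the ryanodine receptor binding protein FKBP12, went from 426 ± 1.9 to 178 ± 4.2 CPM, and Slc8b1, the mitochondrial sodium and calcium exchanger, from 50.1 ± 1.7 to 15.2 ± 0.27. In RBPMS-KD they were lower by 0.27 ± 0.034 and 0.42 ± 0.038 on the log2 scale, and in QKI-KD Fkbp1a was higher by 0.13 ± 0.034. Tmco1, a channel of the endoplasmic reticulum membrane, rose in all the knockdowns from 26.8 ± 0.71 CPM to 89.3 ± 4.9, 88.5 ± 4.0 and 91.4 ± 1.5. In QKI-KD the calcium-activated chloride channel gene Ano1 fell from 70.5 ± 0.94 to 21.6 ± 0.90 CPM, and the stretch-gated channel gene Piezo2 from 38.8 ± 4.1 to 11.1 ± 0.21. Ano1 was higher in RBFOX2-KD, by 0.36 ± 0.040 on the log2 scale. Piezo2 was lower by 0.25 ± 0.080 in RBPMS-KD, lost without control replicate 3 (adjusted p = 0.086), and higher by 0.22 ± 0.079 in RBFOX2-KD, lost without control replicate 1 or 2 or RBFOX2-KD replicate 1 or 2 (0.099, 0.12, 0.11 and 0.068).

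The targets of calcineurin and the partners of CaMKII also differed between knockdowns. Nfatc1 was at 17.4 ± 1.3 CPM in control, 27.7 ± 1.8 in RBPMS-KD, 47.8 ± 1.1 in RBFOX2-KD and 11.8 ± 0.43 in QKI-KD, with log2 fold changes of 0.67 ± 0.058, 1.46 ± 0.057 and -0.56 ± 0.060. Nfatc3 fell in RBFOX2-KD, from 75.5 ± 1.8 to 28.1 ± 0.62 CPM, and rose in RBPMS-KD and QKI-KD. Nfatc4 fell from 42.2 ± 1.9 to 23.3 ± 0.55 CPM in RBPMS-KD and 18.4 ± 0.80 in RBFOX2-KD. Camkk2, a kinase that calmodulin activates, fell in every knockdown, most in QKI-KD by 1.34 ± 0.040 on the log2 scale, and Camk2n1, an inhibitor of CaMKII, fell by 1.21 ± 0.076 in RBFOX2-KD and 0.78 ± 0.075 in RBPMS-KD. Camk2n1 was higher by 0.21 ± 0.072 in QKI-KD, a call lost without control replicate 2 (adjusted p = 0.066) or QKI-KD replicate 2 (0.061). Chp1, a calcineurin-like calcium binding protein, rose in all the knockdowns by 1.10 ± 0.036, 1.22 ± 0.036 and 0.79 ± 0.036. The other named genes of these lists were Micu3 and Rcan3, both lower in all the knockdowns, Mcoln3, higher in all of them, and Tmem38b. Tmem38b was lower by 1.09 ± 0.084 in QKI-KD and 0.58 ± 0.082 in RBPMS-KD, and higher by 0.24 ± 0.079 in RBFOX2-KD, which was lost without control replicate 3 (adjusted p = 0.071) or RBFOX2-KD replicate 1 (0.053).

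Because 18 calcium genes fell together, their promoters were read from RefSeq, 250 bases before to 50 after the start of each gene on GRCr8, which is not the build of the count table. A promoter was found for 66 of the 86 genes and 53 of the 70 tested. A single window was kept for each symbol, so other starts of a gene were not read. Whether the start kept is the start used in these cells was not tested. The GC box GGGCGG, the site of the SP1 family, was searched on both strands and lay in 13 of the 17 promoters found for genes lower in all the knockdowns, 76.5%, and in 0 of the 4 found for genes higher in all of them. It lay in 60.4% of the promoters of the calcium genes tested, 56.1% of those of all genes tested and 34.9% of all promoters. The CArG box of serum response factor lay in none of the 53 promoters, where 1.34% of those of all genes tested held it, the TATA motif TATAAA lay in 2 of 53, and the CRE motif TGACGTCA in none. The median GC content was 72.3% for the genes lower in all the knockdowns, 43.7% for those higher in all and 59.7% for all genes tested. Both sets were picked by these same fold changes, and the 4 higher promoters are those of Slc8a1, Trpm1, Trpm5 and Trpm6. Shares for all genes lower or higher in all the knockdowns were not taken. The difference therefore cannot be called particular to calcium genes. The box is itself rich in GC, and whether its share differs beyond GC content was not tested. A match is a description of letters in this window and not a site of binding.

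The promoters of Cacnb3 (chr7:131666301-131666600, + strand) and Itpr2 (chr4:181134818-181135117, - strand), which were lower in all the knockdowns and hold GC boxes, are set beside those of Casq2 (chr2:192214306-192214605, + strand), lower in all without one, and Slc8a1 (chr6:19023309-19023608, + strand), higher in all without one. Capitals mark GGGCGG or its reverse complement, and the annotated start that was kept follows the 250th base. The windows stand for that start alone, so a gene without a box here may hold a box at another start.
Cacnb3: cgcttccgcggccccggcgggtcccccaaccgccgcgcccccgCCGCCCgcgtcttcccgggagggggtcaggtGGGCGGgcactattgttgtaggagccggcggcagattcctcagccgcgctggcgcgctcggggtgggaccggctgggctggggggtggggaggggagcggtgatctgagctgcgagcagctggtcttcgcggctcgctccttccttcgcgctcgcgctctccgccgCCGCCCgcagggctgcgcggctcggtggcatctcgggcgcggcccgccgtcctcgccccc
Itpr2: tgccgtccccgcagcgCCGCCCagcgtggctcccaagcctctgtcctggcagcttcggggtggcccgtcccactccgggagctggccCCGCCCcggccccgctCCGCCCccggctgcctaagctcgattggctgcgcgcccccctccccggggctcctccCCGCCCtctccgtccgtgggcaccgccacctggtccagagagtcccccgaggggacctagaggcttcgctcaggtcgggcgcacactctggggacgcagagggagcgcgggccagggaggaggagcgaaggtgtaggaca
Casq2: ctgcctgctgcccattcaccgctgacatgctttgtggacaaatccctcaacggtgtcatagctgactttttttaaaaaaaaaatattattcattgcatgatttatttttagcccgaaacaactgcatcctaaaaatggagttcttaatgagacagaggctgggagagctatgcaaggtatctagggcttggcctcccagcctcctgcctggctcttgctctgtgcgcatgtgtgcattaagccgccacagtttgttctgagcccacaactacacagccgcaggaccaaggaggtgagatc
Slc8a1: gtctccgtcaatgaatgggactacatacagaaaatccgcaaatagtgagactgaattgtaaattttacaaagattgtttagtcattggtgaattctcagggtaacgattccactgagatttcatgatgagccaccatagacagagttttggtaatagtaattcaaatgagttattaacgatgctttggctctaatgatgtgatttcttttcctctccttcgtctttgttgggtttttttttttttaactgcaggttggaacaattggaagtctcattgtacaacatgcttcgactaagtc
The Cacnb3 window holds 3 GC boxes and the Itpr2 window 4, and its GC content is 77.7% and 75.0%, against 47.7% for Casq2 and 36.3% for Slc8a1.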

How the data were processed

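Poly(A) RNA of PAC1 cells was sequenced in 12 libraries, 3 each for the control siRNA C2 and for siRNA against RBPMS, RBFOX2 and QKI. The study's methods describe subsampling the reads to a uniform depth. Reads were aligned with STAR (2.5.2a in the submitters' processing notes) to mRatBN7.2, and the authors deposited counts per gene from featureCounts. Its strand, overlap and multi-mapping settings are not given in the sources used here. The totals, 110595399 to 151665474 counts, differ between libraries and lie above that uniform depth. Whether the deposited counts are of the subsampled reads therefore cannot be told here. Of the counts from 1 to 19, 68.1% are even, against 50.9% of those above 1000. The authors also deposited a signal table of 22320 genes, filtered for noise and quantile normalised, which was used here as an alternative with log2 of the value plus 1 and limma 3.58.1.

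The members were chosen by symbol, and the members and lists were chosen with earlier results of these data known. Genes were kept by filterByExpr by group (18438 of 33294), TMM factors were applied, and all 12 libraries were fitted in edgeR 4.0.16 (glmQLFit, glmQLFTest, R 4.3.3), two-sided, with Benjamini-Hochberg adjustment over the genes tested. CPM use TMM-adjusted totals, and the SE is the log2 fold change divided by the square root of F. The fit was tested on simulated data. Genes named reached a mean of 5 CPM or were changed in any knockdown, and of the other lists those that met both. Alternatives were DESeq2 1.42.0, RLE factors, library totals, 2 count filters, halved counts, glmTreat, fits of 2 groups, a replicate block and leaving out each library. The same replicate numbers in the 4 groups did not pair the libraries. With 3 libraries a group, an exact permutation test cannot give a p below 0.1, so single genes were tested only in the model over all genes. Some members outside the named rule, such as Cacna1a, Trpm1 and Ryr3, were named after their values were seen. Values of 2 members are not reported here, but the counts over all members include them.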

Additional observations from a re-analysis of the deposited data

How the results depend on the processing

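Of the 291 differences between groups that were called for the named genes, none changed direction in 6032 values under the alternatives, and 148 of those values lost the call, from 36 of the differences. These values refit the same libraries and are not independent checks, so a change of direction was unlikely for a called gene. Leaving out a library outside the groups compared changes only the filter, scaling and dispersion. The counts of calcium genes changed most with the count filter and the fold test, which by their construction test fewer genes or ask more of each. With only genes of at least 200 mean counts, 6, 8 and 6 calcium genes were higher in RBPMS-KD, RBFOX2-KD and QKI-KD, changed genes were 1 higher and 3 lower, 2 and 4, and 1 and 9, and over all genes 352 and 340, 424 and 416, and 506 and 978. Between knockdowns that filter left 16 genes lower in RBPMS-KD than in QKI-KD and 10 lower in RBFOX2-KD than in QKI-KD. It kept 12237 genes, where 18438 were tested in the main fit. How many calcium genes it kept, and the shares of all genes higher or lower under it, were not taken. These counts therefore cannot be read as shares. A test for changes beyond the fold threshold itself (edgeR glmTreat) gave 2 higher and 3 lower, 2 and 3, and 7 and 9 calcium genes, and 347 and 256, 453 and 366, and 700 and 1004 over all genes. Leaving out 1 library gave 4 to 7 changed higher genes in RBPMS-KD. Library totals without TMM moved the median of all genes by -0.13 between RBPMS-KD and QKI-KD.

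Libraries with the same replicate number did not deviate together, with 2 of 18 correlations over 0.1 and a range of -0.275 to 0.207. Pairs of unlike number reached 0.363 for control 3 with RBPMS-KD 1 and -0.294 for control 3 with RBPMS-KD 2. Structure between groups that the replicate number does not index was not tested. With the replicate number as a block, 8 calcium genes in place of 9 were changed downward in RBFOX2-KD, 13 rose and 28 fell there, and 5 calls of named genes were lost.

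The fits of 3 libraries a group resolved small differences only at high counts, so the folds of genes with few counts are the least certain.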
